A study of Mus musculus with 6 samples.

Results

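Interleukin-36 (IL-36) genes were followed in wounded mouse skin: the 3 agonist cytokines Il1f6 (IL-36α), Il1f8 (IL-36β) and Il1f9 (IL-36γ), the receptor antagonist Il1f5 (IL-36Ra) and the receptor chain Il1rl2. They were chosen by name, as the genes whose single symbol in the array annotation is 1 of these older Il1f names or Il1rl2, and these 5 genes stand among 19938 genes measured. Each of the 5 was represented by 1 probe set. Total RNA from back skin of inbred male BALB/c mice 5 to 6 weeks old was hybridised to Affymetrix gene arrays. The 3 groups were intact skin, wounds taken 1 day after injury and wounds taken 4 days after injury, with 2 arrays in each. A wounded mouse carried 2 punch wounds of 4 mm, and a punch of 8 mm took each wound with the skin around it, so the wound samples also hold uninjured edge skin. The labels call the replicates biological and do not say whether an array held 1 mouse or a pool, so p-values measure the spread between these samples, and the number of arrays limits the precision.

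IL-36 cytokines belong to the IL-1 family and are made mainly by epithelial cells, in skin above all by keratinocytes. The 3 agonists bind Il1rl2, which then recruits the accessory chain Il1rap and signals through Myd88 to NF-kB and MAP kinases, so that keratinocytes and dendritic cells make chemokines, cytokines and antimicrobial proteins. Il1f5 occupies the same receptor without recruiting the accessory chain, and loss of its human counterpart causes a generalised pustular form of psoriasis. The agonists gain activity when proteases, several of them from neutrophils, trim their N terminus.

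The values are log2 intensities, on which 1 unit is a doubling, scaled across arrays by the submitters with RMA. All 5 genes lay above the lower quartile of the probe sets (5.29 to 5.37) on all 6 arrays, and Il1f8 lay under the array median on both intact arrays. Keratinocyte markers were strongly detected: 9 of 10 basal markers and 12 of 13 markers of differentiated epidermis lay above the upper quartile on every array. The wound arrays numbered 2 stood apart in hair follicle transcripts. A summed level here is the log2 of the summed intensities of the markers, in which the brightest genes weigh most. Over 10 hair follicle markers it was 15.14 to 15.17 on the intact arrays. It was 12.98 and 14.03 on the day 1 and day 4 arrays numbered 1, and 9.98 and 10.46 on those numbered 2. Between the 2 arrays of a day the IL-36 genes differed by far less, as their values show. In whole skin, fewer cells of a type and less RNA per cell cannot be told apart, and which cells held the transcripts was not measured.

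The ligand genes lie side by side on chromosome 2 in the order Il1f8, Il1f9, Il1f6, Il1f5, with no other protein-coding gene between them, while Il1rl2 lies on chromosome 1 (RefSeq, mouse assembly GRCm38.p6, used here for names, gene order and sequence). RefSeq start sites were matched for 4 of the 5 genes, the exception being Il1f6. The 250 bases before the start are printed 5′ to 3′ for 3 neighbouring ligand genes, the agonists Il1f9 and Il1f8, called on both wound days, and the antagonist Il1f5 (the upstream of its 2 starts), called on day 4, at chr2:24186226-24186475, chr2:24152922-24153171 and chr2:24276704-24276953, all on the plus strand. Capitals mark matches, on either strand, to 3 motifs of inflammatory signalling: AP-1 (TGANTCA), STAT (TTCNNNGAA) and the NF-kB consensus.
Il1f9: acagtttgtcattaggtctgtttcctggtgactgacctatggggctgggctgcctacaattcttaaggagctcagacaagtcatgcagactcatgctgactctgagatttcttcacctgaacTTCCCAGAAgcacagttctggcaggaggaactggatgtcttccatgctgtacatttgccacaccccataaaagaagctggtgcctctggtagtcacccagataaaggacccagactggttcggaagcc
Il1f8: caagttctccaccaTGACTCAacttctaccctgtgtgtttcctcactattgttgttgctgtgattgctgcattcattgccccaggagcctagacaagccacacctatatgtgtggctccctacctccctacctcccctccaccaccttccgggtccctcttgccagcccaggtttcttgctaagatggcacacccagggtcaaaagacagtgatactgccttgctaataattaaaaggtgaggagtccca
Il1f5: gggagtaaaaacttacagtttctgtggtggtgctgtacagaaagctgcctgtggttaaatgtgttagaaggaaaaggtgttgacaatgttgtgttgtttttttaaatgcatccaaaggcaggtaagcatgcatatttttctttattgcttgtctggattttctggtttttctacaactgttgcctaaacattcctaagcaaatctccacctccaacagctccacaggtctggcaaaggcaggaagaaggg
The Il1f8 window held 1 AP-1 match, TGACTCA, at bases -236 to -230 from the start, and the motif occurs in 6.75% of 32851 mouse windows of this length. The Il1f9 window held 1 STAT match, TTCCCAGAA, at -128 to -120, a motif found in 7.02% of the windows. The first Il1f5 window and the Il1rl2 window held none of the 3 motifs, and the window of the second Il1f5 start held a STAT match, TTCTGGGAA, at -98 to -90. No window of the 4 genes matched the NF-kB consensus, which occurs in 7.25% of all windows. These matches describe letters and not binding.

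On day 1 after wounding the 3 agonist genes and the receptor gene were higher than in intact skin, and the antagonist gene did not pass the test. Of the 5 genes 4 rose and none fell, where 29.3% of all genes tested were called, 14.7% higher and 14.6% lower (limma, two-sided, Benjamini-Hochberg adjusted p under 0.05 over all genes).

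Il1f9, the agonist that keratinocytes release in inflamed human skin, had log2 intensities of 8.48 and 8.38 in intact skin, 11.03 and 11.14 on day 1 and 10.76 and 10.89 on day 4. All 4 wound arrays lay more than 2 units above the intact arrays, and the day 4 arrays lay just under those of day 1. It was 6.30-fold higher on day 1 (log2 change 2.65, SE 0.088, 95% interval 2.44 to 2.87, adjusted p = 2.83e-05), the largest change of the 5 genes, and still 5.26-fold higher on day 4 (SE 0.088, adjusted p = 7.39e-05).

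Il1f6, the agonist IL-36α, stood at 7.62 and 7.37 in intact skin, 8.92 and 8.88 on day 1 and 9.02 and 9.36 on day 4. The step from intact skin to day 1 was larger than that from day 1 to day 4, and the later step did not pass the test. It was 2.65-fold higher on day 1 (log2 change 1.41, SE 0.137, adjusted p = 0.000802) and 3.24-fold higher on day 4 (SE 0.137, adjusted p = 0.000635).

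Il1f8, the agonist IL-36β, stood at 6.76 and 6.89 in intact skin, 8.07 and 8.12 on day 1 and 8.31 and 8.63 on day 4. Its order of groups was the same as that of Il1f6, and its step from day 1 to day 4 did not pass the test either. It was 2.41-fold higher on day 1 (log2 change 1.27, SE 0.119, adjusted p = 0.000712) and 3.13-fold higher on day 4 (SE 0.119, adjusted p = 0.000438).

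Il1f5, the antagonist, followed another course, at 9.59 and 9.57 in intact skin, 10 and 9.82 on day 1 and 10.60 and 10.85 on day 4. The day 1 arrays lay close to the intact ones and the day 4 arrays above both. On day 1 its log2 change was 0.33 (SE 0.11, 95% interval 0.065 to 0.595, adjusted p = 0.0673), short of the threshold. It passed with an adjusted p of 0.0465 when intact and day 1 arrays were fitted alone. Leaving out either day 4 array repeats that fit, since a single day 4 array adds nothing to the spread. Il1f5 stayed short of the threshold on day 1 under every other alternative, with log2 changes from 0.24 to 0.42. On day 4 it was 2.21-fold higher than in intact skin (log2 change 1.14, SE 0.11, adjusted p = 0.00109).

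Il1rl2, the receptor chain, changed least, at 9.72 and 9.82 in intact skin, 10.24 and 10.20 on day 1 and 9.99 and 10.14 on day 4. Its day 4 arrays lay between the intact and the day 1 arrays. It was 1.37-fold higher on day 1 (log2 change 0.45, SE 0.085, adjusted p = 0.00961) and 1.23-fold higher on day 4 (SE 0.085, adjusted p = 0.0464). The day 1 call was lost without intact skin replicate 1 (log2 change 0.40, adjusted p = 0.0699). The day 4 call was lost without intact skin replicate 1 (0.24) or 2 (0.34) and without day 4 replicate 2 (0.22). It was also lost with intact and day 4 arrays fitted alone (0.30, adjusted p = 0.0731), the same fit as without either day 1 array. Each other scaling of the arrays lost it too (adjusted p from 0.0529 to 0.0588).

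**Figure D1:**
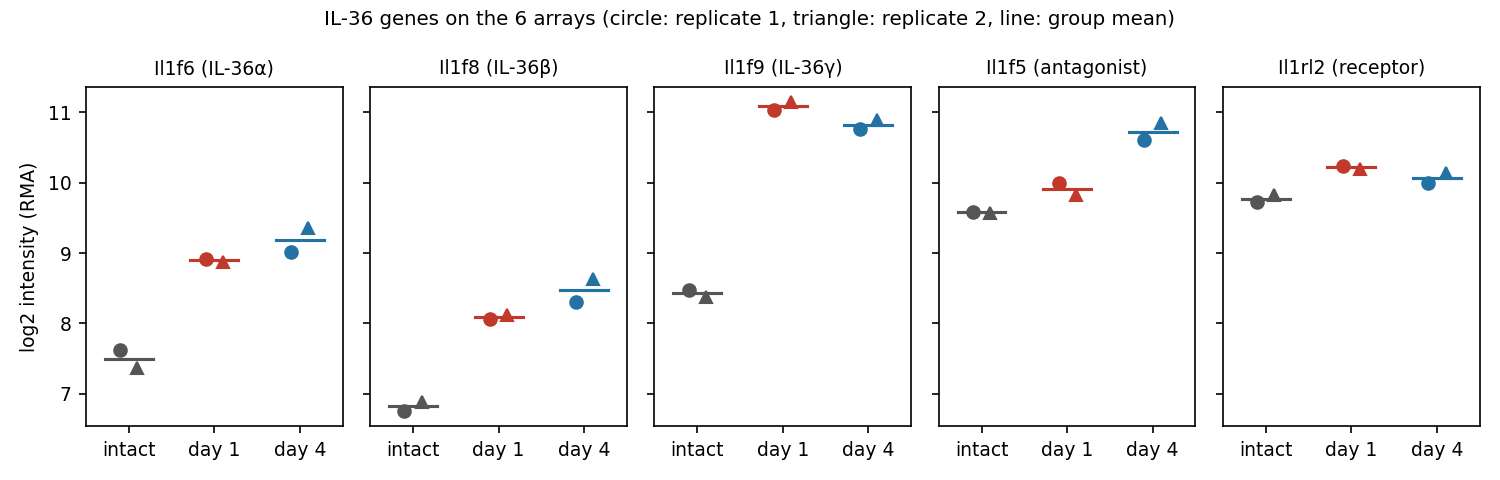
Log2 intensity of the 5 IL-36 genes (vertical axis) in intact skin and in day 1 and day 4 wounds, with a circle for replicate 1, a triangle for replicate 2 and a line at the mean of the 2 arrays. Levels are to be compared within a panel only: Il1f9 steps up between intact skin and day 1, Il1f6 and Il1f8 reach their highest values of 9.36 and 8.63 on day 4, and Il1f5 moves mainly between day 1 and day 4.

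On day 4 all 5 genes were called higher than intact skin, where 26.9% of all genes were called, 14.8% higher and 12.1% lower. The comparison shares its intact arrays with that of day 1, so the calls of the 2 days are not independent. Il1f9, Il1f6 and Il1f8 kept their calls on both days, and Il1f5 its call on day 4, with any 1 array left out (highest adjusted p 0.0153). With both wound arrays numbered 2 left out, which leaves 1 array for each day, the log2 changes on day 4 were 2.33 for Il1f9, 1.53 for Il1f6, 1.49 for Il1f8, 1.02 for Il1f5 and 0.22 for Il1rl2, with 0 of the 5 called (adjusted p from 0.0642 to 0.21), and on day 1 Il1f9 (2.60) and Il1f8 (1.24) were called, 2 in place of 4. With both wound arrays numbered 1 left out, 2 were called on day 1 and 4 on day 4, Il1rl2 being the exception on day 4 (0.37, adjusted p = 0.108).

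The comparison of day 4 with day 1 wounds asks which of the genes went on changing as repair proceeded. Il1f5 alone of the 5 was called, 1.76-fold higher on day 4 (log2 change 0.81, SE 0.11, 95% interval 0.55 to 1.08, adjusted p = 0.0303), where 2.23% of all genes were called, 1.09% higher and 1.14% lower. This call was lost without any single array of the 6 (log2 changes 0.69 to 0.94). It was also lost with the 2 wound groups fitted alone (adjusted p = 0.0933), the same fit as without either intact array. Testing all probe sets together lost it as well (adjusted p = 0.0848). The agonists did not pass: the log2 change was 0.29 for Il1f6 (95% interval -0.039 to 0.619, adjusted p = 0.312), 0.37 for Il1f8 (0.089 to 0.661, adjusted p = 0.164) and -0.26 for Il1f9 (-0.471 to -0.049, adjusted p = 0.183). Il1rl2 was at -0.16 (-0.361 to 0.051, adjusted p = 0.385). Called higher on day 4 than in both other groups but not on day 1, as Il1f5 was, were 86 genes or 0.431% of all, and called higher on both days with no call between them, as the other 4 were, were 2017 genes or 10.1%.

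**Figure D2:**
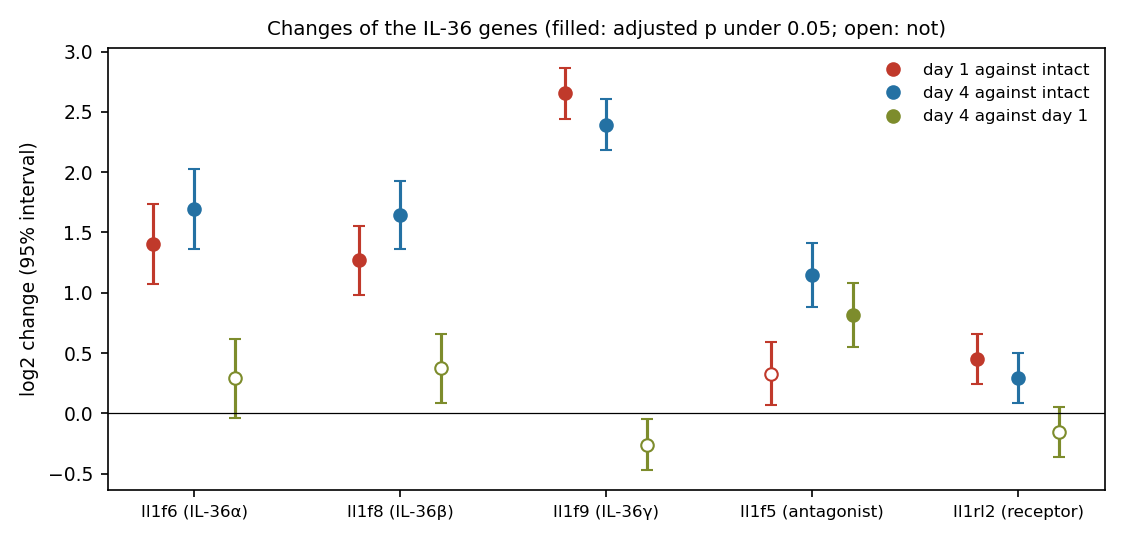
Log2 change of each IL-36 gene (vertical axis, with 95% intervals from limma) for day 1 against intact skin, day 4 against intact skin and day 4 against day 1, with filled points where the adjusted p was under 0.05. The 3 agonists are filled for both wound days and open between the days, and Il1f5 is open on day 1 (0.33) and filled on day 4 (1.14) and between the days (0.81).

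Since agonists and antagonist share a receptor, each agonist was also set against Il1f5 on the same array, as a log2 ratio with the intact mean at 0. Such a ratio shows unequal change and not which transcript was more abundant. For Il1f9 the ratio was 2.18 and 2.47 on the day 1 arrays and 1.31 and 1.19 on the day 4 arrays, so it was 5.01-fold above intact skin on day 1 and 2.38-fold on day 4. For Il1f6 it was 1.00 and 1.15 on day 1 and 0.50 and 0.59 on day 4, and for Il1f8 it was 0.83 and 1.05 on day 1 and 0.47 and 0.54 on day 4. For all 3 agonists the ratio was highest on day 1 and lay between day 1 and intact skin on day 4. The 3 ratios use the same Il1f5 values, so they are not independent. With 2 arrays against 2, an exact permutation test (two-sided) cannot go below p = 0.333, which each of the 9 comparisons gave (0.333 adjusted over the 9), so these ratios are a description.

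**Figure D3:**
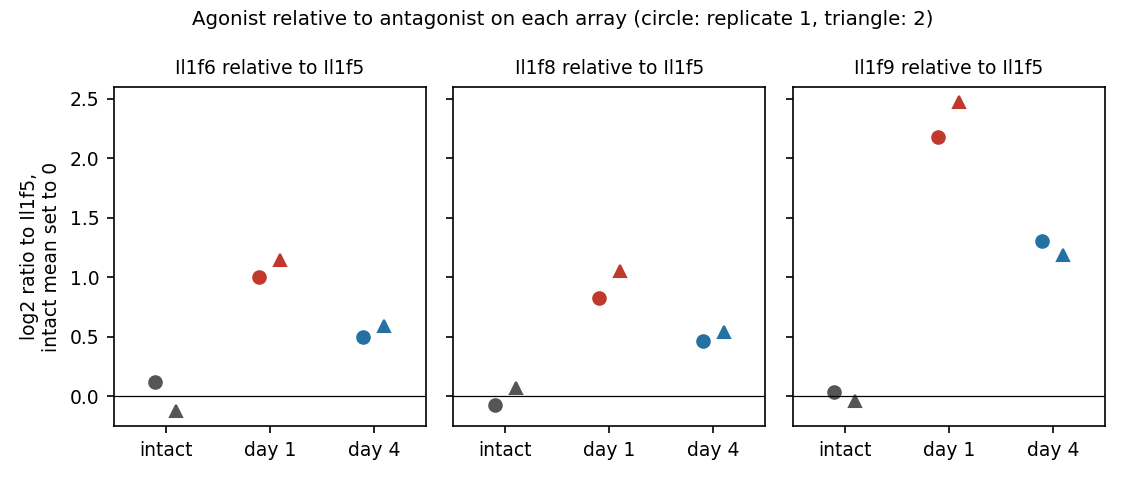
Log2 ratio of each agonist gene to Il1f5 on every array (vertical axis), with the mean of the intact arrays set to 0, a circle for replicate 1 and a triangle for replicate 2. In each panel the day 1 arrays are highest and the day 4 arrays lie between them and the intact arrays, for Il1f9 at 2.18 and 2.47 against 1.31 and 1.19.

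The ligand cluster goes on along chromosome 2 with Il1f10, which encodes IL-38, a family member described as a ligand of Il1rl2 with antagonist activity, and Il1rn, the IL-1 receptor antagonist. Il1f10 went against its neighbours: it stood at 7.93 and 7.99 in intact skin, 6.12 and 6.34 on day 1 and 6.23 and 5.88 on day 4. It fell by 1.73 on day 1 (SE 0.135, adjusted p = 0.000379) and by 1.91 on day 4 (SE 0.135, adjusted p = 0.00042) on the log2 scale, with all wound arrays under the intact ones. Il1rn stood at 9.84 and 9.78 in intact skin, 11.00 and 11.05 on day 1 and 10.20 and 10.33 on day 4. It was lower on day 4 than on day 1 (log2 change -0.76, SE 0.08, adjusted p = 0.0187), where Il1f5 was higher, a call of Il1f5 that was lost without any single array. Il1f10 did not pass between the days (log2 change -0.175, adjusted p = 0.546). Of the 2 other family members called lower on day 4 than on day 1, Il1rn and Il1a, 1 was called without day 4 replicate 2 and 0 without any other single array. The flanking genes Hnmt, Tbpl2, Psd4 and Pax8 passed the test on neither day, with log2 changes between -0.355 and 0.265.

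**Figure D4:**
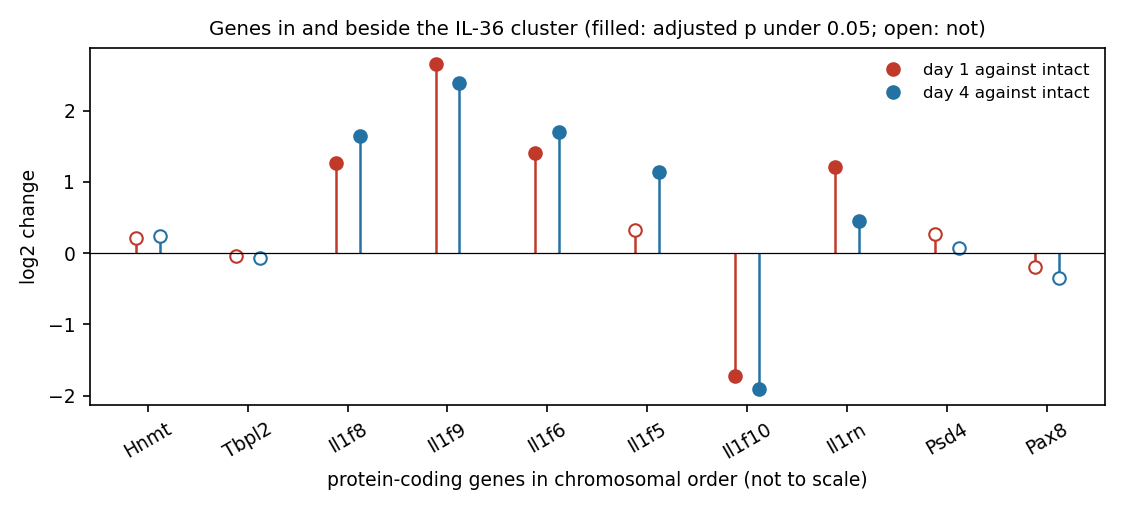
Log2 change against intact skin (vertical axis) on day 1 and day 4 for the 6 IL-1 family genes of the chromosome 2 cluster and 2 protein-coding genes on each side, in chromosomal order and not to scale, with filled points where the adjusted p was under 0.05. Il1f8, Il1f9 and Il1f6 are high on both days, Il1f5 on day 4, Il1f10 lies at -1.73 and -1.91, and the outer genes lie near 0.

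Outside the receptor chain itself, the signalling genes of the pathway changed in part. The counts for this list and those after it stand beside 14.7% of all genes called higher and 14.6% lower on day 1, and 14.8% and 12.1% on day 4. Of 20 measured genes 9 rose and 2 fell on day 1 (median log2 change 0.19, against -0.04 over all genes), and 7 rose and 1 fell on day 4 (median 0.13, against -0.03), a count of 3 without day 4 replicate 2 or intact skin replicate 1 and of 4 without intact skin replicate 2. The 2 falls of day 1, Tab1 and Tab3, were both lost without day 1 replicate 2 or either intact array, and the 1 fall of day 4, Tab3, without either intact array. Nfkbiz, an IkB family protein needed for many IL-36 responses, rose 3.12-fold on day 1 and Myd88, the receptor adaptor, 3.04-fold. Nfkbia, the inhibitor that NF-kB induces, rose 2.61-fold and the kinase Irak2 1.81-fold. Il1rap, the accessory chain that completes the IL-36 receptor and was singled out for that role after its values were seen, stood at 8.02 and 8.11 in intact skin, 9.08 and 9.64 on day 1 and 8.76 and 9.06 on day 4, a 2.45-fold rise on day 1 (SE 0.192, adjusted p = 0.00377). Il1rap also serves the IL-1 and IL-33 receptors. Between the days Myd88 and Nfkbiz were lower on day 4 (log2 changes -0.78 and -0.53), calls that were lost without any 1 of the arrays.

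Of the proteases and inhibitors listed for IL-36 processing, 5 of 8 rose on each day and none fell (medians 1.14 and 0.85). Over all genes 14.7% were called higher on day 1 and 14.8% on day 4. Transcripts of the neutrophil proteases Ctsg, Elane and Prtn3, which trim IL-36 precursors, were not among them. Their log2 changes on day 1 were -0.12, -0.08 and -0.10, and Ctsg lay under the lower quartile on all 6 arrays. Intact means of Elane and Prtn3 were also low, at 5.96 and 6.34. Protease protein was not measured, so these values do not show how much protease the wounds held. Ctss, cathepsin S, which trims human IL-36γ, rose 7.67-fold on day 1 and 8.03-fold on day 4. The inhibitors Serpina3n, Slpi and Serpinb1a rose 4.00-fold, 6.04-fold and 6.39-fold on day 1. Slpi and Serpinb1a block neutrophil proteases. Between the days 0 of the 8 were called by limma, and 3, Serpina3n, Slpi and Serpinb1a, had an unadjusted p under 0.05.

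Cytokines known to induce IL-36 genes in keratinocytes split in the same way on both days. Il1b, Il1a and Tnf rose, 3 of 6 measured, by 44.5-fold, 3.43-fold and 4.52-fold on day 1. The T cell cytokines Il17a, Il17f and Ifng did not pass, with log2 changes of -0.23, -0.18 and -0.08 on day 1 and levels under the array medians. Of the 6 other IL-1 family ligands and antagonists, Il1a and Il1b included, 5 rose and 1, Il1f10, fell on each day (medians 1.5 and 1.11), with the alarmin Il33 11.4-fold higher on day 1.

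Genes that IL-36 is known to induce in keratinocytes and dendritic cells, and that other cytokines induce too, were mostly higher. On day 1 15 of 19 rose and none fell (median 2.17), the growth factor gene Csf2 (log2 change 0.5) among the 15 although it lay under the lower quartile on all 6 arrays, and on day 4 13 of 19 rose and none fell (median 1.33). The chemokines Cxcl2 and Ccl3 rose 104-fold and 82.7-fold on day 1, and the antimicrobial subunits S100a9 and S100a8 27.2-fold and 23.6-fold. Folds of Cxcl2 and 5 other genes that lay under the lower quartile on both intact arrays are approximate. Il17c, Il12b, Camp and the beta-defensin Defb4 passed on neither day (day 1 log2 changes -0.015, -0.17, -0.165 and -0.76). Defb4 varied widely between replicates (SE 1.434), so whether it changed is not settled by these arrays. S100a8 and S100a9 are also neutrophil genes, and Tnf, which rose on both days, is also counted among the inducing cytokines above. Between the days 5 of 19 were lower on day 4 and none higher, with log2 changes of -1.89 for Ccl20, -2.71 for Il6, -1.77 for Cxcl5, -1.06 for Cxcl1 and -1.31 for Lcn2. With 1 array left out this count was 1 without day 1 replicate 2, day 4 replicate 1 or either intact array, 2 without day 1 replicate 1 and 3 without day 4 replicate 2.

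**Figure D5:**
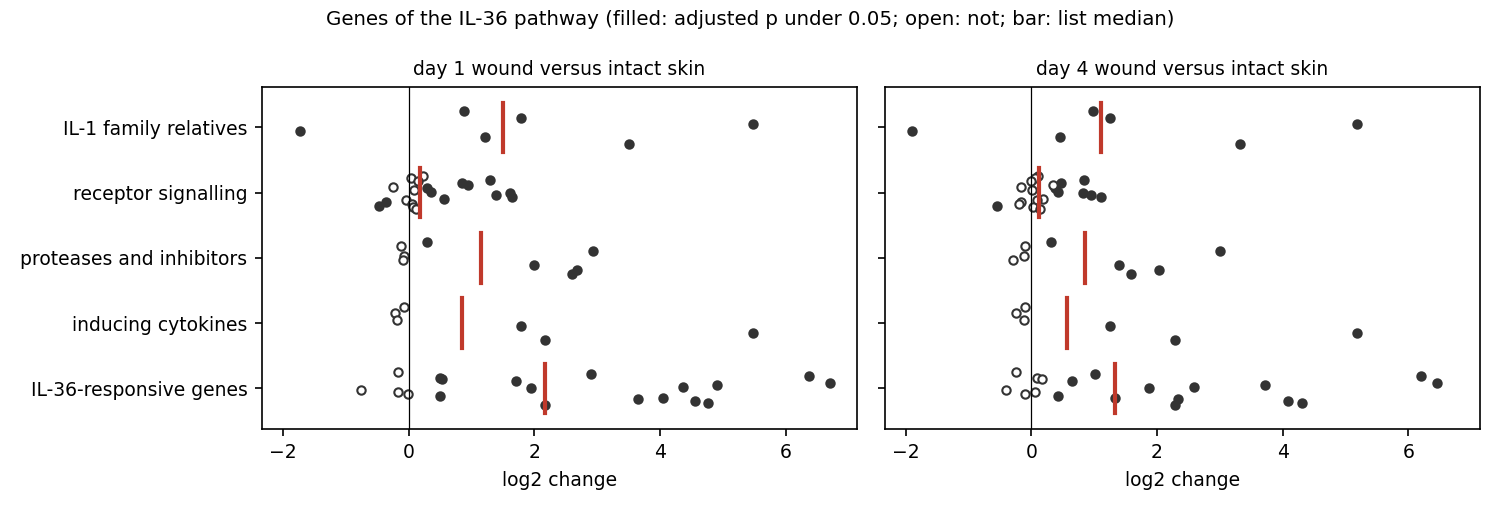
Log2 change against intact skin (horizontal axis) on day 1 and day 4 for the genes of 5 pathway groups around IL-36, 1 point a gene, filled where the adjusted p was under 0.05, with a bar at the median of the group. The IL-36-responsive genes have medians of 2.17 and 1.33, and those of the receptor signalling genes, of which 9 rose and 2 fell on day 1, are 0.19 and 0.13.

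Several cell type markers moved in the same biopsies. Of all genes tested, 14.7% were called higher and 14.6% lower on day 1, and 14.8% and 12.1% on day 4. Of 9 wound-edge keratinocyte markers 8 rose on each day (median log2 changes 2.59 and 1.68), with the keratin Krt16, of the smallest p, 10.3-fold higher on day 1. From day 1 to day 4 these 9 had a median log2 change of 0.08. Of the 9, 1 was called higher and 0 lower, where 1.09% of all genes were called higher and 1.14% lower. The summed level of the 9, which the brightest genes dominate, was 13.31 to 13.43 in intact skin, 14.56 on both day 1 arrays and 14.65 to 14.67 on day 4. Of 10 basal keratinocyte markers 6 rose and 1 fell on each day, and their summed level went from 14.24 to 14.31 in intact skin to 14.43 to 14.52 on day 1 and 14.49 to 14.50 on day 4. The 13 markers of differentiated epidermis, where 5 rose and 3 fell on day 1 and 6 rose and 3 fell on day 4, summed to 14.84 to 14.85, 14.87 to 14.98 and 15.07 to 15.17. Of 13 neutrophil markers 12 rose on day 1 and 10 on day 4, with summed levels of 10.33 to 10.38, 13.98 to 14.42 and 13.10 to 13.42, and 2 of them, Ly6g and Mmp8, lay under the lower quartile in intact skin. All 11 monocyte and macrophage markers rose on both days (11.98 to 12.31, 13.94 to 14.16 and 14.11 to 14.16). Of 12 dendritic and Langerhans cell markers 8 rose on day 1 and 9 on day 4, and 1 fell on each day (11.66 to 11.81, 12.25 to 12.35 and 12.48 to 12.74). Of 6 T cell markers 4 rose on day 1 and 3 on day 4, and of 8 fibroblast markers 5 rose and 1 fell on each day. Of 8 skeletal muscle markers 8 rose on day 1 and 5 on day 4, and of 10 hair follicle markers 7 fell on day 1 and 5 on day 4. The 3 hair follicle markers not called on day 1 had log2 changes of -4.40, -4.25 and -4.135, with SEs of 1.898, 1.845 and 2.04. The part of these markers in the IL-36 changes was not tested.

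For each of the 5 genes the most similar courses over the 6 arrays were found by the root mean square (RMS) difference of log2 values centred per gene. The 5 genes themselves and genes with provisional names were left out of this search. Closest to Il1f9 was Cd84, a leukocyte surface receptor, with an RMS difference of 0.079, followed by the cornified envelope gene Sprr2e (0.119), Glipr1 (0.12), the lactate carrier Slc16a3 (0.132) and Samhd1 (0.133). Closest to Il1f6 were the transcription factor Irf8 (0.073), P2ry10 (0.094), Tsc22d3 (0.1), Ces2f (0.101) and Hpgds (0.117). Closest to Il1f8 were Naaa (0.068), the small proline-rich gene Sprr2i (0.075), Galnt7 (0.09), the macrophage growth factor receptor Csf1r (0.092) and C1s1 (0.092). Il1f5 was closest to the lipid transfer gene Pltp (0.078), Aadac (0.079), Fibin (0.09), the myeloid receptor Trem2 (0.096) and Pde3b (0.097). Il1rl2, whose changes were small, was closest to Taz (0.027), Rsbn1 (0.031), Cndp2, Lrch1 and Ipmk (0.034 each).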

How the data were processed

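Total RNA (integrity numbers 7.7 to 9.1) was hybridised to 6 arrays. The deposited values are log2 intensities, summarised with RMA per the submitters' processing notes (version not given in the sources used here), with 2 decimals; the build behind the probe design is not given there either. Of 35556 probe sets, 21789 carried 1 gene symbol, 1621 several and 12146 none. The brightest probe set of each gene gave 19938 genes. A mean per group was fitted to all 6 arrays with limma 3.58.1 (R 4.3.3, empirical Bayes, 3 residual and 3.4 prior degrees of freedom), two-sided, with Benjamini-Hochberg adjustment over all genes and a threshold of 0.05. The code was tested on simulated data. Alternatives changed scaling, prior, filter, probe set choice and arrays. All members and lists were chosen with earlier results of these data known. Named were all 5 members and the 5 genes of closest pattern to each, with members and provisional names left out. From each list up to 4 genes with the smallest unadjusted p in the contrast described were named. Values were also given for others of a pathway list that did not pass. Genes outside these rules were named for their role after their values were seen. Promoters and gene order came from RefSeq GRCm38.p6.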

Additional observations from a re-analysis of the deposited data

How the results depend on the processing

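Alternatives of prior, filter, replicate block and probe set choice could not alter the log2 changes of the 5 genes. Each of these genes had 1 probe set, and every group held both array numbers. Leaving out an array of the third group repeated the fit of the 2 groups compared. Within that limit no result reversed. Of 648 recomputed values, with counts, ratios and such repeats included, 76 were weaker, 3 stronger and 4 moved. The other 565 kept their direction and, where tested, their side of the threshold; counts among them stayed within 1.5 times, which includes counts that lost a call, such as members called higher on day 4 under quantile normalization (4 for 5) and on day 1 without intact replicate 1 (3 for 4). Il1f5 on day 1 passed (0.33) with only both groups compared, which is the same fit as without a day 4 array. Its log2 change ranged from 0.24 to 0.42 with 1 array left out. Il1rl2 on day 1 ranged from 0.40 to 0.50. Il1rl2 on day 4 failed under quantile normalization (0.28), cyclic loess (0.26), median centring (0.27), a fit of its 2 groups (0.30) and a test of all probe sets (0.29), and ranged from 0.22 to 0.37 with 1 array left out. Il1f5 on day 4 against day 1 failed with the 2 groups alone (0.81) and with all probe sets (0.81), leaving 0 members called higher in each, and ranged from 0.69 to 0.94, with 0 called whichever array was left out. The ratio of Il1f9 to Il1f5 ranged from 2.18 to 2.47 on day 1 and from -1.22 to -0.93 between the days.

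An alternative chosen after seeing the data left out both wound arrays of a number, with 1 residual degree of freedom. Without number 1, Il1f6 (1.39) and Il1rl2 (0.43) failed on day 1, with 2 called, Il1rl2 (0.37) on day 4, and Il1f5 (1.03) between the days, with 0 called. Without number 2, Il1f6 (1.43) and Il1rl2 (0.47) failed on day 1, with 2 called; on day 4 Il1f6 (1.53), Il1f8 (1.49), Il1f9 (2.33), Il1f5 (1.02) and Il1rl2 (0.22) failed, with 0 called; and Il1f5 (0.60) failed between the days, with 0 called.

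With 1 array left out, list genes called lower between the days numbered 0 to 1 of the relatives, 0 of the signalling genes, 0 of the inducers and 1 to 3 of the responsive genes. Signalling genes called lower numbered 0 to 2 on day 1 and 0 to 1 on day 4, and those called higher on day 4 numbered 3 to 7. Fewer arrays leave fewer degrees of freedom; otherwise the cause was not tested.

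Deviations of same-numbered arrays correlated at 0.01 (intact and day 1), 0.02 (intact and day 4) and 0.69 (day 1 and day 4). Wound arrays of the same number thus shared part of their deviation, and intact arrays did not share it. The labels do not say whether the numbers pair arrays, and the main fit did not take them as pairs. With the number as a replicate block no call of the 5 genes changed (Il1f5 between the days 0.82, adjusted p = 0.0391; Il1rl2 on day 4 0.29, adjusted p = 0.0488), and calls over all genes went from 5842 to 5864, 5371 to 5497 and 444 to 583.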

Other observations

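Il1rl2 lies on chromosome 1 among other receptor genes of the IL-1 and IL-18 families, singled out here after their values were seen. Il1r2, the decoy receptor for IL-1, was higher by 1.72 on the log2 scale on day 1 (limma, adjusted p = 0.00122) and by 1.00 on day 4 (adjusted p = 0.0112). Il18rap, the accessory chain of the IL-18 receptor, was higher by 2.45 on day 1 (adjusted p = 0.000355) and by 1.46 on day 4 (adjusted p = 0.00294), and its partner Il18r1 by 1.12 (adjusted p = 0.00269) and 0.86 (adjusted p = 0.00851). Il1r2 is also on the neutrophil marker list, of which 12 of 13 genes rose on day 1, and the part of neutrophils in its rise was not tested. Il1r1 and Il1rl1, the genes directly beside Il1rl2, were not analysed here. The flanking genes Map4k4 and Slc9a4 passed on neither day, with log2 changes of 0.21 and 0.22 on day 1.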
